A study of Homo sapiens with 108 samples.

Results

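Transcripts of cells in which the zinc-finger gene MAZ was knocked down were compared with those of cells given a non-targeting hairpin (NT). The libraries were chosen by their titles: every library named for the MAZ knockdown and every library named for the non-targeting control, 24 of the 108 in the series. HEK293T is an established human line of embryonic kidney origin. Its cells were transduced with lentivirus that carries a short hairpin RNA, against MAZ in 12 libraries and non-targeting in 12, and selected with puromycin. All of them, NT included, grew for 24 h in 10 µM 4-thiouridine (4SU), a uridine analog that enters new RNA, and then for 0, 2, 4 or 8 h in 1 mM uridine, with 3 biological replicates per hairpin and chase time. The labels do not say how many hairpins were used, so an effect of a hairpin other than on MAZ cannot be told apart from an effect of MAZ. In bulk RNA such as this, fewer cells of a kind and less RNA per cell cannot be told apart either.

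MAZ, the MYC-associated zinc-finger protein, is a C2H2 protein that binds G-rich DNA and is known as a transcription factor of GC-rich promoters, many of which lack a TATA box. It has also been found beside CTCF at chromatin insulators. SLAM-seq reads RNA turnover from 4SU: alkylated 4SU is copied as C in place of T, so the share of T positions read as C (the label) falls during a uridine chase as old transcripts decay and unlabelled ones replace them. The libraries were made from the 3′ ends of polyadenylated RNA and counted over annotated 3′ UTR intervals, so each level below is that of a gene's 3′ UTR reads.

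MAZ libraries held 13906544 to 28110307 counted reads, and NT libraries held 8206060 to 13359455, so the deeper arm was always MAZ. At least 5 reads were found for 12428 to 13170 genes in MAZ libraries and for 10808 to 11435 in NT libraries. Multimapped reads made up 6.42 to 7.37% and 6.66 to 6.91% of MAZ and NT reads. The 9 HEK293 marker genes all had reads and summed to 1002 to 1250 CPM (counts scaled to the size of the library) in MAZ libraries and 826 to 1168 CPM in NT libraries. Summed fibroblast markers reached 27.9 CPM in MAZ and 36.8 CPM in NT libraries, and summed blood markers 10.1 and 12.8 CPM. Of 4 fibroblast markers tested, LUM and COL3A1 were called higher in MAZ cells, at no more than 3.79 and 4.34 normalised CPM in any MAZ library, and no fibroblast marker was called with a replicate left out of every group. COL1A2 and COL3A1 had no NT read, and the part of such reads in the results below was not tested. DCN, HBB and PTPRC had no read in either arm. The label of replicate 1 at 4 h in the MAZ arm stood above that of every 2 h library of its arm, and results that rest on it are given with and without it.

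MAZ mRNA (chr16:29806106-29811164, plus strand, hg38) had 82.5 normalised CPM in its lowest, 101 in its median and 121.6 in its highest MAZ library, against 650, 850 and 1052 in NT libraries. No MAZ library came near any NT library. The mean was 102 ± 12.1 normalised CPM in MAZ cells and 842.5 ± 98.2 in NT cells (SD, n = 12 each), 12.2% of the NT level (log2 fold change −3.04, SE 0.08, adjusted p = 3.0e-27, edgeR quasi-likelihood test). The fall was between −2.92 and −3.16 on the log2 scale at every chase time. MAZ mRNA averaged 428 normalised CPM in PHF7, 536 in ZMAT3, 284 in ZMAT5 and 430 in ZNF706 knockdown libraries of the same series, so NT libraries held the highest level of the arms compared. Against the mean of those 4 knockdowns the fall was 1.99 log2 units (SE 0.07, adjusted p = 1.4e-37).

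The DNA before the RefSeq start of MAZ holds GGGAGGG, a sequence that MAZ recognises, and is shown here because the knockdown addresses this gene. The RefSeq start lies downstream of the gene start given above, which is that of GENCODE, so the window falls inside the gene as GENCODE draws it. The 250 bases upstream of the RefSeq start (RefSeq, GRCh38.p14, plus strand, chr16:29806279-29806528) hold 4 matches on either strand, overlapping ones counted, in capitals.
MAZ upstream: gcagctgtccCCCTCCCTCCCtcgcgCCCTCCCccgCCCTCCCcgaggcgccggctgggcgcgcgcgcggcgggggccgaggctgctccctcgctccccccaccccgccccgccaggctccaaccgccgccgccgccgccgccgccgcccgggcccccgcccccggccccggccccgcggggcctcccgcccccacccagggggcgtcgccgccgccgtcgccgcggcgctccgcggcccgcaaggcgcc
All 4 lie in the first part of the window as written, farthest from the start. Over RefSeq promoters of 250 bases before to 50 after a start, GGGAGGG occurred in 25.4% of all 27305, in 32.4% of the 10700 matched to a tested gene, in 34.9% of the 395 matched to a gene that fell and in 28.2% of the 510 matched to a gene that rose. These shares are a description, as the promoters also differed in GC content (median 67.3% for genes that fell and 62.7% for genes that rose).

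Of 13398 genes tested for level, 1171 (8.74%) passed an adjusted p of 0.05 with a fold change over 1.2. Of them 696 (5.19%) were higher and 475 (3.55%) lower in MAZ cells, and the median log2 change over all tested genes was 0.08. Many of the rises were of faint genes: 237 of them averaged under 20 normalised CPM in MAZ libraries, whereas 11 of the falls averaged under 20 in NT libraries. No NT library had a read of 101 of the called genes. With MAZ libraries thinned to the mean NT depth, 673 genes were higher and 498 lower. Thinning evens out the number of reads only. Read counts of replicates scattered at 65.0 to 71.4 times counting error in NT and 31.0 to 51.3 times in MAZ libraries (chi-square per degree of freedom). The part of this unequal scatter in the calls was not tested. With at least 20 normalised CPM in the higher arm, 28 genes rose by more than 1 log2 unit and 36 fell by more than 1. All 12 MAZ libraries lay above all 12 NT libraries for 30 genes (0.224% of those tested) and below them for 45 (0.336%).

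Among the genes without such overlap, the strongest falls after MAZ itself were in a mixed group that serves translation, mitochondria, the cytoskeleton and RNA processing. EIF5A, the hypusine-bearing translation factor that helps ribosomes past difficult peptide bonds, had 179.3, 326 and 358 normalised CPM (lowest, median and highest) in MAZ libraries and 533, 748 and 943 in NT libraries. Its highest MAZ library stayed well below its lowest NT library, with a log2 change of −1.32 (SE 0.08, adjusted p = 1.7e-14). DNAJC7, a co-chaperone of HSP70 and HSP90, had 140.1, 154 and 207 normalised CPM in MAZ and 265, 312 and 422 in NT libraries (−1.01, adjusted p = 9.2e-12). PTMS, the acidic protein parathymosin, had 33.3, 60.1 and 74.7 in MAZ and 90.2, 155 and 202 in NT libraries (−1.43, adjusted p = 4.5e-10).

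NUDT21, the RNA-binding subunit of cleavage factor Im, which steers the choice of polyadenylation site, had 82.1, 96.3 and 133.6 normalised CPM in MAZ libraries and 148, 195 and 245 in NT libraries. The gap between the arms was narrow, and the log2 change was −0.96 (SE 0.10, adjusted p = 1.1e-08). WASF2, a subunit of the WAVE complex that starts branched actin networks, had 67.5, 79.5 and 98.9 in MAZ and 108, 154 and 199.1 in NT libraries (−0.95, adjusted p = 2.7e-08). The other falls of this group were CLPTM1 (−1.41), MRPL28 of the mitochondrial ribosome (−1.41), SCAF1, which binds the tail of RNA polymerase II (−1.36), the kinase MARK2 (−1.29), the zinc-finger gene ZNF768 (−1.25), PMPCA of the mitochondrial processing peptidase (−1.19), NDUFB7 of complex I (−1.19), AP2A1 of the clathrin adaptor (−1.08) and GNB2, a G-protein beta subunit (−0.95). Each was called and none had overlapping libraries.

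**Figure D1:**
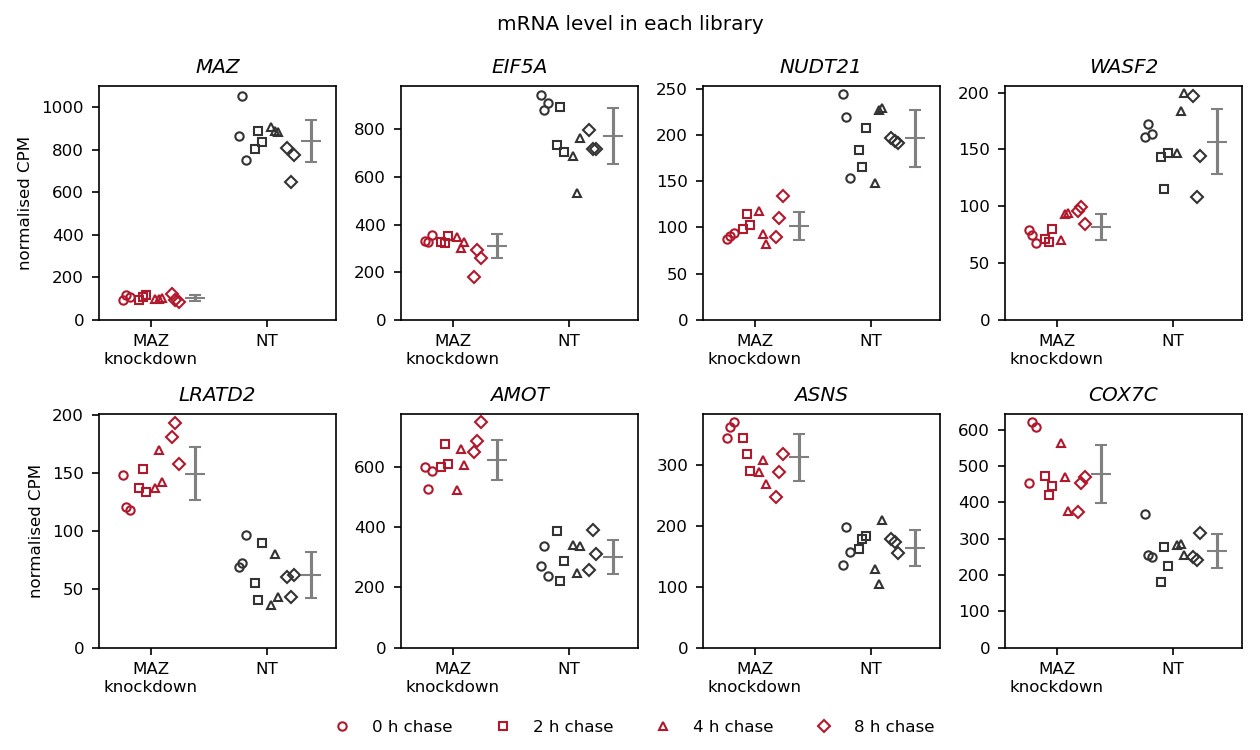
Normalised CPM (vertical axes, from 0) of 8 mRNAs in each of the 12 MAZ knockdown (red, left) and 12 NT libraries (black, right), with symbols by chase time and grey bars for the mean and SD. MAZ, EIF5A, NUDT21 and WASF2 were lower and LRATD2, AMOT, ASNS and COX7C higher in every MAZ library than in any NT library.

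The strongest rises without overlap included metabolic enzymes, secreted and signalling proteins and small mitochondrial subunits. LRATD2 had 118.7, 145 and 193 normalised CPM in MAZ libraries and 36.9, 61.5 and 97.1 in NT libraries, a log2 change of 1.26 (SE 0.14, adjusted p = 5.4e-08). AMOT, the angiomotin that binds YAP at cell junctions, had 523, 609 and 750.2 in MAZ and 220.2, 299.9 and 389 in NT libraries (1.04, adjusted p = 2.8e-11). ROMO1, a small protein of the inner mitochondrial membrane, had 262, 309 and 460.3 in MAZ and 101, 147 and 173 in NT libraries (1.25, adjusted p = 4.7e-11). By chase time the log2 change of LRATD2 ran between 0.70 at 0 h and 1.67 at 8 h, and that of AMOT between 0.95 and 1.13.

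ASNS, the enzyme that makes asparagine, had 246, 313 and 370.2 normalised CPM in MAZ libraries and 103.9, 167.5 and 209.5 in NT libraries. All its MAZ libraries stood above the NT range, with a log2 change of 0.93 (SE 0.09, adjusted p = 4.2e-09). STC2, a secreted glycoprotein induced by stress, had 127, 149 and 196 in MAZ and 56.8, 80.3 and 118.4 in NT libraries (0.81, adjusted p = 2.4e-06). COX7C, a subunit of cytochrome c oxidase, had 374, 462 and 622 in MAZ and 181.5, 255 and 369 in NT libraries (0.85, adjusted p = 6.7e-09). Further rises of this group were GNG4, a G-protein gamma subunit (1.17), SRD5A3 of dolichol synthesis (1.16), FKBP10, a prolyl isomerase of the endoplasmic reticulum (0.93), the mitochondrial creatine kinase CKMT1B (0.87, with 37.8% of its reads multimapped), carbonic anhydrase CA2 (0.83), OCIAD1 (0.74), the complex III assembly factor UQCC5 (0.73) and the proteasome subunit PSMB7 (0.66). The genes chosen in this way were 15 falls and 15 rises.

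A second reference was available in the same series: the libraries of the PHF7, ZMAT3, ZMAT5 and ZNF706 knockdowns, which also carry a hairpin against a zinc-finger gene. This fit used 59 libraries, since a PHF7 library of 63659 reads was left out. Both comparisons share the MAZ libraries, so their values are given side by side. Of 14864 genes tested, 2086 (14%) were called, 1221 (8.21%) higher and 865 (5.82%) lower in MAZ cells. All 15 chosen rises were called higher in this fit too: AMOT by 1.76, LRATD2 by 1.85, GNG4 by 1.49, STC2 by 1.19 and ASNS by 1.08 log2 units. The chosen falls did not follow one pattern. Of the 15, 5 were called lower, MAZ itself among them, 1 was called higher and the rest were not called. WASF2 (−1.01, adjusted p = 2.1e-16) and NUDT21 (−0.86, adjusted p = 1.3e-17) fell about as far as against NT, and CLPTM1 (−0.48) and PMPCA (−0.46) fell by less. NDUFB7 was called higher (0.29), and EIF5A (0.12, adjusted p = 0.44), PTMS (0.08) and DNAJC7 (−0.13) were not called. EIF5A averaged 311 normalised CPM in MAZ libraries on the scale of this fit, against 307 in PHF7, 401 in ZMAT3, 196 in ZMAT5 and 289 in ZNF706 libraries.

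**Figure D2:**
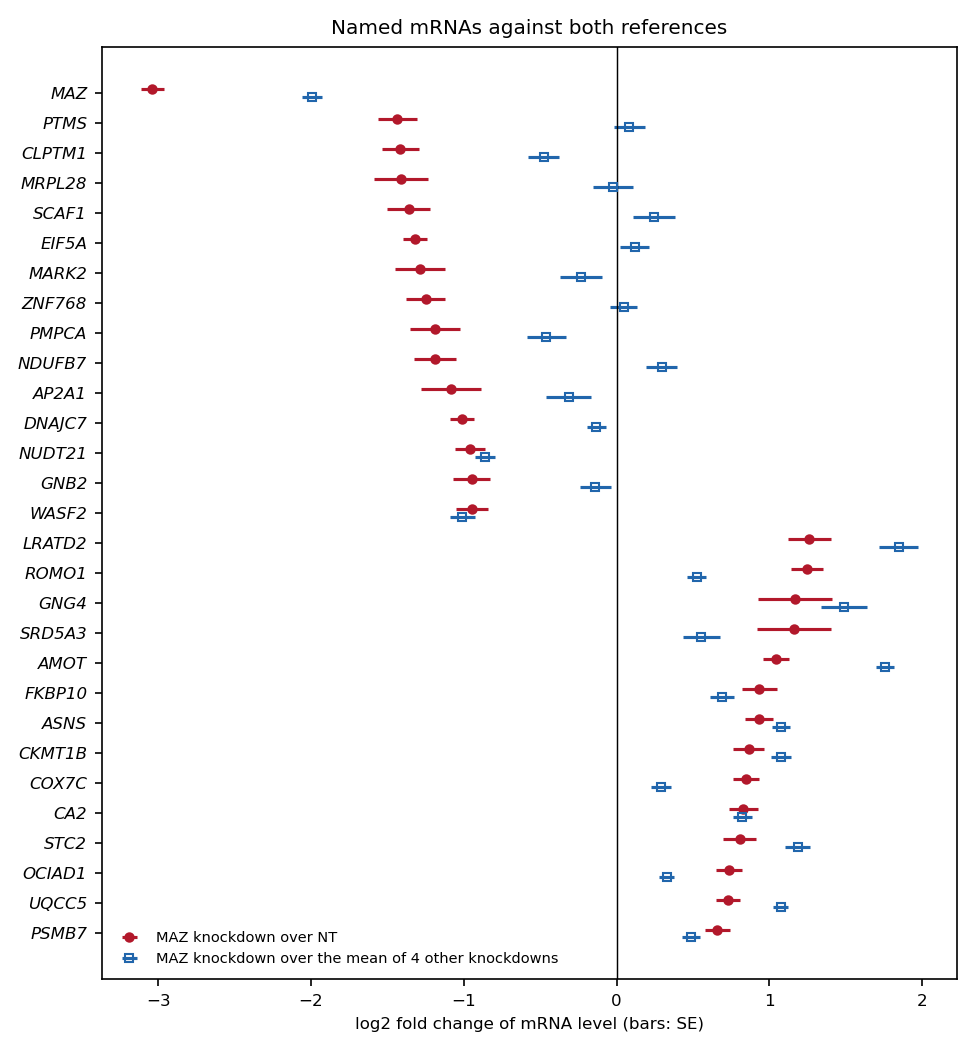
Log2 fold change of mRNA level with its SE (horizontal axis) for the genes named above, in MAZ over NT libraries (red circles) and in MAZ libraries over the mean of 4 other knockdowns (blue squares). All rises shown lie right of 0 against both, whereas PTMS, SCAF1, EIF5A, ZNF768 and NDUFB7, among the falls, lie right of 0 against the other knockdowns.

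Members of 30 gene lists were then counted by the edgeR test, and each count is to be read against the shares over all genes, 5.19% higher and 3.55% lower. ATF4 is the transcription factor of the integrated stress response, which switches on amino acid synthesis, amino acid import and transfer RNA charging when translation initiation is restrained. Of 31 such genes tested, 14 rose (45.2%, against 5.19% of all genes) and 1 fell, and the median log2 change was 0.38, against 0.08 over all genes. Besides ASNS and STC2, the glutamine carrier SLC1A5 had 647, 806 and 844 normalised CPM in MAZ and 434, 538 and 692 in NT libraries (0.51, adjusted p = 1.6e-06). The ranges overlapped between 647 and 692.

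PSAT1 of serine synthesis had 338, 378 and 461 normalised CPM in MAZ and 155, 244 and 343 in NT libraries (0.64, adjusted p = 2.9e-06). CHAC1, which degrades glutathione, had 8.44, 28.8 and 41.4 in MAZ and 0, 2.47 and 16.3 in NT libraries, 4 of which had no read of it (3.05, adjusted p = 0.0015). PYCR1, SESN2, SLC7A11, DDIT4, NUPR1, PHGDH, GARS1, ATF5 and XPOT were the other members that rose. SLC7A5, the large neutral amino acid carrier, fell (−0.40, adjusted p = 4.1e-04). ATF4 mRNA itself was 0.07 (adjusted p = 0.70) and TRIB3 0.46 (adjusted p = 0.55), and DDIT3 (CHOP) was 2.78 at 4.20 to 13.2 normalised CPM in MAZ and 0 to 6.46 in NT libraries (adjusted p = 0.0505). Against the 4 other knockdowns the list median was 0.47, with 16 members higher and 1 lower. The count was 14 higher and 1 lower without replicate 1 of the 4 h MAZ libraries, and 1 higher from the 0 h libraries alone, where the median was 0.47.

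ATF4 binds with C/EBP partners to an element of the form TGATGNAA. The 250 bases upstream of 25 list genes with a RefSeq promoter were searched for it on both strands, and 4 (16%) held a match, against 3.19% of all 27305 promoters and 1.40% of those of tested genes. They are shown with 26 bases on each side, 5′ to 3′ on the strand of the gene (GRCh38.p14), the element in capitals, so that called and uncalled genes can be compared.
ASNS, chr7:97872443-97872502, minus strand: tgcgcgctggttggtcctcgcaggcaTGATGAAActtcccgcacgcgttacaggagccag
CHAC1, chr15:40953236-40953295, plus strand: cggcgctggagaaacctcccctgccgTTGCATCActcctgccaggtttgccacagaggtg
ATF3, chr1:212565190-212565249, plus strand: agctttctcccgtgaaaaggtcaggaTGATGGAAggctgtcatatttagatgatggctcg
AARS1, chr16:70289660-70289719, minus strand: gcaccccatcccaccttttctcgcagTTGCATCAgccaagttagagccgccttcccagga
ASNS and CHAC1 rose, whereas ATF3 (0.26, adjusted p = 0.54) and AARS1 (0.18, adjusted p = 0.56) were not called. Among the 11 called members with a promoter, 2 (18.2%) held the element in this window.

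Cytosolic ribosomal protein mRNAs share a pyrimidine-rich start that ties their translation to growth signals. Of 82 tested, 41 rose (50%, against 5.19% of all genes) and 2 fell (2.44%, against 3.55%), with a median of 0.30. RPL34, of the large subunit, had 1826, 2125 and 2821 normalised CPM in MAZ libraries and 1362, 1494 and 1702 in NT libraries (0.54, adjusted p = 1.5e-08). Its ranges stood apart. RPL36 (0.65) and RPS28 (0.87) rose too, and RPL18 (−0.38) and RPS9 (−0.72) fell, although 99.5% of RPS9 reads were multimapped and RPS9 was called higher against the 4 other knockdowns (0.28). Ribosomal proteins have many processed pseudogenes: among the 65 genes with fewer than 50% multimapped reads, 33 rose and 1 fell. Without replicate 1 of the 4 h MAZ libraries 34 rose and 4 fell, and from 0 h libraries alone 12 rose and none fell, with a median of 0.44. Against the 4 other knockdowns 40 were higher and 3 lower (median 0.28).

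Subunits of oxidative phosphorylation rose in 27 of 81 cases (33.3%, against 5.19% of all genes) and fell in 4 (4.94%, near the 3.55% of all genes), with a median of 0.22. ATP5MG of the ATP synthase had 1445, 1669 and 2292 normalised CPM in MAZ and 1014, 1228 and 1478 in NT libraries (0.46, adjusted p = 1.4e-06). NDUFA1 (0.48) and NDUFB9 (0.54) of complex I rose with it and with COX7C, while NDUFB7, NDUFS7 (−0.64), NDUFS8 (−0.35) and the supercomplex factor COX7A2L (−0.28) fell. Mitochondrial ribosomal proteins rose in 17 of 78 cases (21.8%, against 5.19% of all genes) and fell in 5 (6.41%, against 3.55%), MRPL28 and MRPL4 (−0.83) furthest. With a replicate left out of every group 4 to 7 rose. Proteasome subunits rose in 7 of 35 cases (20%) and fell in 3 (8.57%). That count moved with the settings: 13 rose and 1 fell with upper-quartile scaling, and 2 to 4 rose and 0 to 1 fell with a replicate left out.

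Actin and adhesion genes fell in 8 of 33 cases (24.2%, against 3.55% of all genes) and rose in 2, with a median of −0.21. ACTB, cytoplasmic beta actin, had 2751, 3082 and 3406 normalised CPM in MAZ libraries and 3731, 4282 and 4778 in NT libraries (−0.45, adjusted p = 2.3e-10), so its arms did not overlap. FLNA, the actin crosslinker filamin A, had 31.7, 39.5 and 65.9 in MAZ and 57.1, 93.4 and 167 in NT libraries (−1.26, adjusted p = 6.2e-07). CCN1, a secreted matrix protein induced by YAP and serum, fell by 0.98 and the severing factor CFL1 by 0.37, while ARPC3 of the Arp2/3 complex (0.38) and the tropomyosin TPM4 (0.33) rose. Without the 8 h libraries 6 members fell and 3 rose.

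Splicing factors of the SR and hnRNP families fell in 6 of 31 cases (19.4%, against 3.55% of all genes) and rose in none (against 5.19%): HNRNPU (−0.41, which shares counted bases with another gene), HNRNPH1 (−0.47), SRSF6 (−0.55), HNRNPM (−0.32), SRSF4 (−0.44) and SRSF9 (−0.27). Genes of DNA replication fell in 6 of 30 cases (20%) and rose in 1 (3.33%). RRM2, the small subunit of ribonucleotide reductase, had 193.7, 252 and 281.5 normalised CPM in MAZ and 285.5, 368 and 527 in NT libraries (−0.60, adjusted p = 1.4e-06). UHRF1 and CDC25A each fell by 0.60. Without replicate 1 of the 4 h MAZ libraries 4 of the 30 fell. Among mitotic genes UBE2C (−0.53), ANLN (−0.75) and MKI67 (−0.55) fell and FOXM1 (0.31) rose, of 34 (8.82% and 2.94%). DESeq2 called 8 of the 34 lower and RLE scaling 7, and none was called higher with RLE scaling, without the 8 h libraries or with a replicate left out.

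Other lists were taken from the known work of MAZ. Of 25 zinc-finger factors of G-rich or GC-box promoters, 5 fell by the edgeR test (20%, against 3.55% of all genes): MAZ, the target itself, ZBTB7A (−0.67), KLF16 (−1.04), ZNF281 (−0.42) and SP1 (−0.43). None rose by edgeR, whereas DESeq2 called 1 higher and 7 lower, and 3 fell without replicate 2 or replicate 3. Each of these counts of falls, and the share of 20%, includes MAZ, whose fall was fixed by the choice of libraries. No gene of 13 in the MYC and MAX network was called by edgeR or by DESeq2. Of 15 genes for CTCF, cohesin and its loaders edgeR called none, DESeq2 called 2 lower, and edgeR called 1 lower with no filter on low counts or without replicate 3. Of 24 genes of the RAS and MAPK pathway, NRAS had 116.4, 149 and 186 normalised CPM in MAZ and 148, 222 and 275 in NT libraries (−0.56, adjusted p = 8.2e-05), with a log2 change of −1.17 against the other knockdowns. HRAS, whose promoter is reported to respond to MAZ, fell by 1.11, but nearly all its reads were multimapped. PNMT, the enzyme of adrenaline synthesis and likewise on the list of reported MAZ-responsive promoters, had no read in any NT library. It reached 1.29 normalised CPM in MAZ libraries, with 73 reads in all from 9 of them (edgeR, adjusted p = 0.025). A floor of 3 NT counts would make it 13.5-fold higher over the group. That floor takes reads as independent, whereas replicates scattered far beyond counting error, so it is no firm lower limit. No member of that list was called higher by DESeq2, with MAZ libraries thinned to NT depth, without the 8 h libraries, without replicate 1 of the 4 h MAZ libraries or with a replicate left out of every group. The other 9 tested of the 11 on that list were not called.

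Of 25 genes of cleavage and polyadenylation, NUDT21 and CSTF3 (−0.44) fell, and CPSF6 (0.44), the partner of NUDT21 in cleavage factor Im, SSU72 (0.35) and CSTF2 (0.66) rose (8% and 12%). CPSF6 had 163.6, 177 and 202 normalised CPM in MAZ libraries and 78.7, 148 and 172 in NT libraries, and its arms overlapped (adjusted p = 0.0043). Of 21 genes of the unfolded protein response 1 rose, HSPA5 (0.33), and 1 fell (4.76% each, near the 5.19% and 3.55% of all genes). Of 24 heat shock and chaperone genes 1 rose (4.17%) and 3 fell (12.5%), the co-chaperone FKBP4 (−0.65) among them. For 423 genes named ZNF, 10 (2.36%) rose and 8 (1.89%) fell, shares below those of all genes. DESeq2 called 27 higher and 14 lower. Short-lived regulators fell in 4 of 39 cases (10.3%, against 3.55% of all genes) and rose in none: CCN1, the helix-loop-helix inhibitors ID3 (−0.48) and ID4 (−0.52) and the AP-1 member JUND (−0.58). ID3 was called the other way against the 4 other knockdowns (0.35, adjusted p = 2.9e-05). Cholesterol genes fell in 3 of 24 cases (12.5%), SQLE (−0.71) and FDFT1 (−0.28) among them, and FDPS rose (0.37), but without replicate 1 of the 4 h MAZ libraries 1 fell and none rose. Of 40 genes of mRNA decay, the decapping activator DCP1A (−0.63) and CNOT9 of the deadenylase complex (−0.34) fell, and the helicase DDX6 (0.33) rose. These shares, 5% lower and 2.5% higher, were near or below those of all genes (3.55% and 5.19%). Of 24 p53 targets, XPC (−0.83) and ZMAT3 (−1.01) fell and SESN2 (0.74) rose (8.33% and 4.17%), but with a replicate left out of every group 1 rose and none fell. Interferon-stimulated genes rose in 3 of 27 cases (11.1%): USP18, whose reads were all multimapped, and IFI35 and IFITM3, which had no read in 11 and 12 of the NT libraries and at most 4.69 and 3.33 normalised CPM in MAZ libraries. Markers of HEK293 cells rose in 2 of 9 cases (22.2%), NEFM (0.74) and INA (0.49), both intermediate filament genes of neurons. With a replicate left out of every group 0 to 1 of them rose, and without the 8 h libraries none did.

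**Figure D3:**
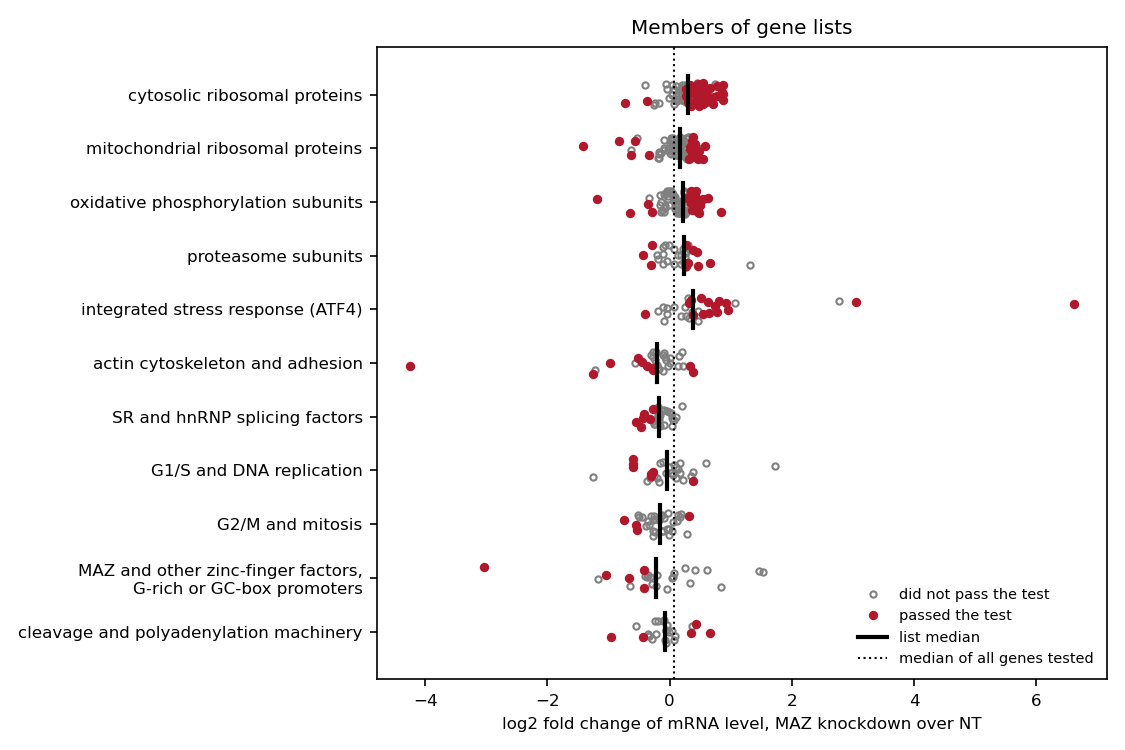
Log2 fold change of mRNA level in MAZ over NT libraries (horizontal axis) for each tested member of 11 gene lists, filled red where the test was passed, with the list median (bar) and the median of all genes (dotted line at 0.08). Integrated stress response and cytosolic ribosomal protein genes are centred at 0.38 and 0.30, and actin and adhesion genes at −0.21.

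The level change between arms depended on chase time for none of 13398 genes after adjustment (edgeR, adjusted p of 0.05), and 920 had an unadjusted p under 0.05. DESeq2 called 73. CDC7, the kinase that fires replication origins, was among the 4 with the smallest p (adjusted p = 0.19): it averaged 170 ± 13.9 normalised CPM in MAZ and 77.8 ± 27.7 in NT libraries at 8 h, but 103 ± 7.92 and 143 ± 44.9 at 0 h (SD, n = 3). The replication-dependent histone H4C3 averaged 211 ± 37.3 in MAZ and 807 ± 274 in NT libraries at 0 h and 709 ± 248 and 656 ± 248 at 2 h. Its averages were 234 ± 14.1 and 440 ± 234 at 4 h and 170 ± 78.0 and 799 ± 159 at 8 h, so the MAZ average was lower at all times but 2 h. At 4 h replicate 3 of NT, at 177, lay below all MAZ libraries (219.5 to 247.5). The libraries were made from polyadenylated RNA, so H4C3 transcripts without a poly(A) tail fall outside these values. Neither CDC7 nor H4C3 passed the test.

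The label before the chase differed between the arms. Pooled over 5970 mRNAs, 3.12, 3.02 and 2.74% of T positions were read as C in MAZ libraries at 0 h, against 1.87, 1.72 and 1.77% in NT libraries. Every MAZ library held more label than any NT library (mean 2.96 ± 0.195% and 1.79 ± 0.078%, SD, n = 3 each, ratio 1.65), which gave an exact two-sided permutation p of 0.1, the smallest that 3 against 3 allows. Knockdowns also differed from each other at 0 h: the pooled label was 2.19 to 2.34% in PHF7, 2.46 to 3.5% in ZMAT3, 1.24 to 1.32% in ZMAT5 and 2.18 to 2.56% in ZNF706 libraries. MAZ libraries thus stood within the span of the other arms and above NT.

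Beyond this common shift, no single gene of 7030 had more or less label at 0 h by the adjusted test (edgeR with the pooled rate in the offset), and 544 had an unadjusted p under 0.05. The gene with the smallest p on the lower side was TRA2A, a splicing activator of the SR-like class: 2.88, 2.82 and 2.76% of its T positions were converted in MAZ and 2.46, 2.46 and 2.56% in NT libraries, a log2 ratio of −0.55 relative to the pooled difference (adjusted p = 0.28). YBX1, a cold-shock RNA-binding protein, followed with 2.03, 1.92 and 1.93% in MAZ and 1.66, 1.34 and 1.46% in NT libraries (−0.32, adjusted p = 0.40). On the higher side, INTS6 of the Integrator complex had 1.89, 3.26 and 1.71% in MAZ libraries, against 0 of 36510 T positions in NT libraries (edgeR, adjusted p = 0.22). Counting error alone would allow an NT share of up to 0.00822%, but this takes reads as independent. Read counts of NT replicates at 0 h scattered at 67.9 to 70.1 times counting error (chi-square per degree of freedom), so the limit is looser than that.

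During the chase the pooled label fell in both arms. In MAZ libraries it averaged 2.96, 2.38, 2.20 and 0.887% at 0, 2, 4 and 8 h, and in NT libraries 1.79, 1.40, 1.06 and 0.642%. At 8 h 30% of the 0 h label was left in MAZ cells and 35.9% in NT cells. The 4 h MAZ libraries were widely spread (SD 0.619 percentage points, against 0.019 in NT), with replicate 1 at 2.86%. Label was lost at 0.151 per h in MAZ and 0.129 per h in NT cells by a straight line on the log scale, a difference of 0.022 per h with a permutation p of 0.51. Without the 8 h libraries the difference was −0.051 per h (p = 0.64, permutation), so its direction rested on the last time point.

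**Figure D4:**
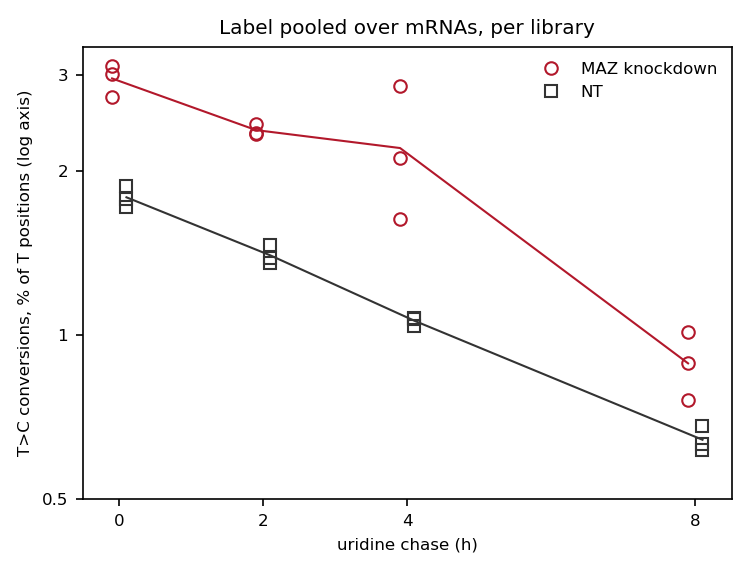
Share of T positions read as C, pooled over mRNAs (log axis, percent), against hours of uridine chase in each MAZ knockdown (red circles) and NT library (black squares), with lines through the means. MAZ libraries lie above NT libraries at each time, and the 3 MAZ libraries at 4 h span 1.63 to 2.86%.

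Half-lives were also computed per gene by the first-order curve that the methods describe. A curve with R2 over 0.6 was found for 7214 genes in MAZ and 5544 in NT cells, and for 4999 in both. Over the latter the median half-life was 4.18 h in MAZ and 3.19 h in NT cells, and 71.6% of genes had the longer one in MAZ cells (median log2 ratio 0.33). Curves through single replicates gave medians of 3.58, 3.69 and 4.28 h in MAZ and 2.63, 2.68 and 2.54 h in NT cells, with an exact permutation p of 0.1. The shift was not stable to the curve: a straight line on the log rate gave a median log2 ratio of 0.02, and leaving out replicate 1 of the 4 h MAZ libraries gave 0.21. Both changes together gave 0.01.

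A per-gene test of label loss, which uses conversions as counts, covered 7393 genes. Median rates were 0.207 per h in MAZ and 0.196 per h in NT cells, and 45.9% of genes lost label more slowly in MAZ cells. Only 3 genes (0.0406%) passed an adjusted p of 0.05, all slower in MAZ cells, and 507 had an unadjusted p under 0.05. ATG16L1, which places the LC3-conjugating complex on autophagic membranes, lost label at 0.321 per h in MAZ and 1.10 per h in NT cells (adjusted p = 0.0029). Its label at 0 h was already higher in MAZ libraries (4.98, 4.10 and 4.62%) than in NT libraries (2.17, 1.93 and 2.58%). At 4 h it was 1.18, 0.629 and 1.24% in MAZ libraries and at most 0.038% in NT libraries, and no NT library had any left at 8 h.

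RCHY1, a ubiquitin ligase that acts on p53, lost label at 0.304 per h in MAZ and 0.698 per h in NT cells (adjusted p = 0.0097). Its 0 h label was 3.75, 4.08 and 2.80% in MAZ and 2.41, 4.12 and 1.28% in NT libraries, with overlap. At 4 h 1.36, 0.964 and 1.74% of its T positions were converted in MAZ and 0.187, 0.342 and 0.160% in NT libraries, with no overlap. The third gene had no symbol and shared counted bases with another. IER5 (0.436 and 0.697 per h in MAZ and NT cells) and MSMO1 of cholesterol synthesis (0.307 and 0.830 per h) came next on the slower side, with adjusted p of 0.14 and 0.15. Without the 8 h libraries the adjusted p was 0.28 for ATG16L1 and 0.36 for RCHY1, and with a replicate left out of every group 0.070 to 0.37 and 0.070 to 0.54.

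On the faster side COX7A2L lost label at 0.190 per h in MAZ and 0.035 per h in NT cells (adjusted p = 0.17), and IRF2BP2, a transcriptional co-repressor, at 0.487 and 0.303 per h (adjusted p = 0.24). MAZ mRNA was among the 6 genes with the smallest p on this side. Its label was 3.32, 4.05 and 3.26% at 0 h in MAZ libraries and 1.80, 1.51 and 1.86% in NT libraries, but 0.357, 0.571 and 0.479% in MAZ and 0.569, 0.457 and 0.821% in NT libraries at 8 h. The arms were apart at 0 h and overlapped at 8 h. The loss was 0.244 per h in MAZ and 0.134 per h in NT cells (difference 0.110, SE 0.030, adjusted p = 0.36), and the fitted half-life 2.67 h and 5.91 h. NUDT21, whose level fell, lost label at 0.187 per h in MAZ and 0.204 per h in NT cells (adjusted p = 0.98).

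**Figure D5:**
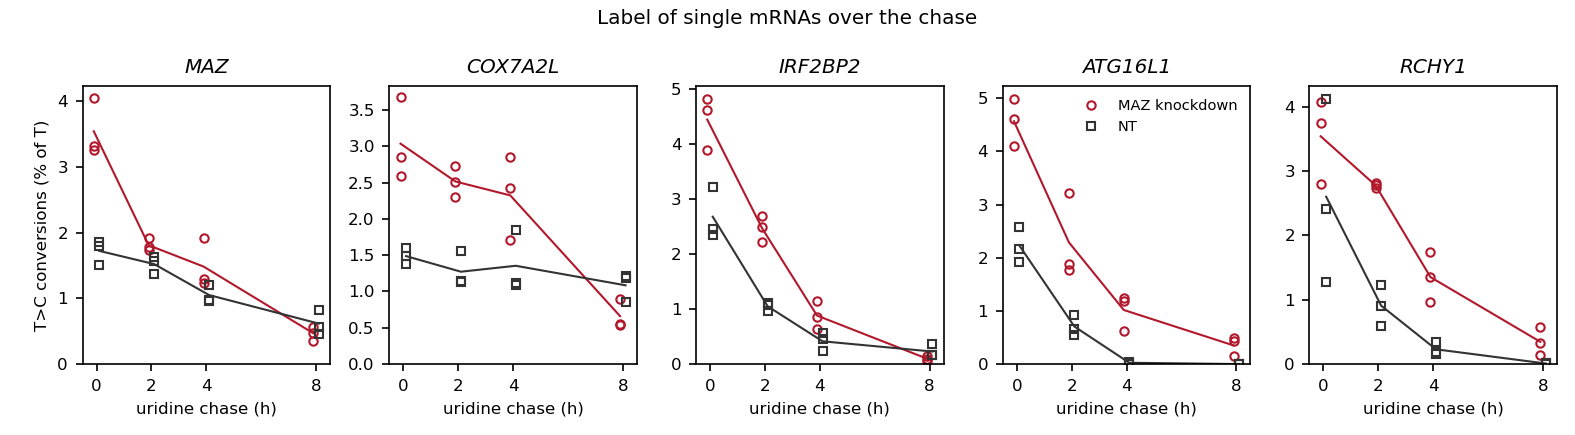
Share of T positions read as C (percent) against hours of uridine chase for 5 mRNAs in each MAZ knockdown (red circles) and NT library (black squares), with lines through the means. All 5 started higher on average in MAZ cells. ATG16L1 and RCHY1 lost label more slowly in MAZ cells, and MAZ, COX7A2L and IRF2BP2 ended near NT or below it.

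As NUDT21 helps to choose polyadenylation sites, the use of separate 3′ UTR intervals of a gene was compared too. Of 3147 genes with at least 2 counted intervals, 80 (2.54%) were called, and 431 had an unadjusted p under 0.05. In 59 of the 80 the interval that led the call had no read in any NT library, and it was higher in MAZ for 74. Depth differed between the arms in the same direction, and with at least 50 reads per interval 8 genes were called. Of the 80, the leading interval was the most 3′ one in 8, of which 7 were higher and 1 lower in MAZ cells.

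BCCIP, a partner of BRCA2 and p21, was that gene. Its most 3′ interval (chr10:125853242-125853695, plus strand, hg38) took a median of 22.2% of its reads in MAZ libraries (lowest 14%, highest 33.1%) and 43.9% in NT libraries (15.8 to 57.4%), and the interval before it 52.3% in MAZ and 34.6% in NT libraries (adjusted p = 0.0018 for the gene). The ranges of both arms overlapped. CSNK1E, casein kinase 1 epsilon, used an inner interval (chr22:38296206-38297107, minus strand) for a median of 24.2% of reads in MAZ and 10.6% in NT libraries (adjusted p = 0.0018). Its ranges overlapped as well, at 18.6 to 28.5% in MAZ and 7.01 to 20.5% in NT libraries. For DTWD1 and COQ7, also among the 5 genes with the smallest p, the leading interval had no NT read and averaged 6.10 and 3.69 CPM in MAZ libraries.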

How the data were processed

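SLAM-seq libraries of HEK293T cells were made with a 3′ mRNA kit, and the authors aligned the reads to hg38 with SlamDunk, multimapped reads included. The deposited tables give, per 3′ UTR interval and library, the authors' counts of reads, of T bases under reads and of those read as C, and a CPM column per the file headers, which served here only for the 5 CPM filter on label. Intervals of a gene were summed, and 19501 of 19761 gene IDs were matched in GENCODE 44, which gave 19175 a symbol. Raw counts were tested with edgeR 4.0.16 (TMM scaling, quasi-likelihood, filter by expression, R 4.3.3), with hairpin and chase time as factors and Benjamini-Hochberg adjustment over all genes tested. Normalised CPM are counts per library after TMM. Conversions were tested as counts with the log of covered T positions as offset. A call needed an adjusted p under 0.05 and, for levels, a fold over 1.2. Interval use was tested with diffSpliceDGE and Simes' method. Values of 3 libraries were compared by exact permutation, and the pooled slopes by 100000 resamples. Named level changes were the 15 largest in each direction among called genes without overlap between arms, with 20 normalised CPM in the higher arm, a symbol, no shared counted bases and under 50% multimapped reads; in lists, up to 4 called members per direction with the smallest p were described, and other called or uncalled members were named after their values were seen. The fits were tested on simulated data. DESeq2 1.42.0, limma 3.58.1 and other scalings and filters were alternatives. The members and gene lists were chosen with earlier results of these data known. Library depth is given with the results. Whether counting used strand was checked on intervals lying inside an opposite-strand interval: 93 of 222 held more reads than the interval around them. Some genes that these rules chose are not reported here.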

Additional observations from a re-analysis of the deposited data

How the results depend on the processing

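Levels rested on all chase times: 71 genes were called from 0 h libraries alone, and 509 to 632 with a replicate left out of every group, against 1171 in full. The other settings gave 951 to 1591 calls, with 1032 without replicate 1 of the 4 h MAZ libraries, a choice made after seeing the data. Upper-quartile scaling gave 831 higher and 387 lower, RLE scaling 659 and 547. The 30 chosen genes kept their call in every setting but 0 h alone, where 20 did. Against single knockdowns the calls numbered 3711 (PHF7), 3199 (ZMAT3), 1957 (ZMAT5) and 1189 (ZNF706). Of the genes named for the largest changes, these had the opposite sign to their value against the 4 together, whatever their sign against NT. In log2 they were, against ZMAT5, FKBP10 −0.017, MARK2 0.13, MRPL28 0.56 and ZNF768 −0.13. Against ZNF706 the values were MRPL28 0.22, PMPCA 0.082, PTMS −0.13 and ZNF768 −0.090. Against ZMAT3 they were EIF5A −0.37 and PTMS −0.0092, and against PHF7 SCAF1 −0.069. Among list members, compared by their means alone, HSPA5, called higher against the 4 together, had 736 normalised CPM in MAZ and 812 in ZMAT5 libraries, and ID3 238 in MAZ and 251 in ZMAT3 libraries. With a replicate left out of the fit against the 4 together, MRPL28 ran between −0.093 and 0.078 and ZNF768 between −0.024 and 0.12. Dependence on chase time had 73 calls by DESeq2 and 0 to 1 with a replicate or the 4 h library left out.

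Without the pooled rate in the offset, 2909 genes had more label at 0 h in MAZ cells and none less, so by construction those with relatively less label turned positive: CSNK1E 0.29, HSPA1B 0.48, JUND 0.21, TRA2A 0.18, TSC22D3 0.38 and YBX1 0.40. Label loss had 1 call over 20 CPM, 5 with the pooled rate in the offset, 1 without the 8 h libraries, 0 to 1 with a replicate left out and 4 without replicate 1 of the 4 h MAZ libraries. Without the 8 h libraries IRF2BP2 turned to slower loss in MAZ cells (0.090 log2 units per h), and the pooled difference to −0.0506 per h. The median log2 half-life ratio was 0.024 by a straight line, 0.21 without the 4 h library, 0.010 by both and 0.25 to 0.48 with a replicate left out. Interval use had 8 calls at 50 reads and 3 to 5 with a replicate left out. The cause of these changes was not tested.

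Same-numbered libraries did not deviate together (correlations −0.15 to 0.03), so the numbers were not taken as pairs. With a replicate block, 1177 genes were called for level, 2048 against the other knockdowns, 2 for label loss, 26 for interval use and 0 for label at 0 h and for dependence on chase time.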
